A study of Mus musculus with 47 samples.

Results

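Genes that mark the epithelium of the choroid plexus were followed in bulk RNA-seq of the hypothalamus, across 7 groups of mice set by treatment and day. The 6 genes Ttr, Enpp2, Kl, Clic6, Folr1 and Sostdc1 were looked up by symbol in the deposited table of raw counts. Of these 6, the genes Enpp2, Kl, Clic6 and Sostdc1 are present among its 14221 genes, so 4 were analysed. Ttr and Folr1 have no entry in the table and were not analysed here. All 4 genes passed the filter on low counts.

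The choroid plexus is a folded epithelium around leaky capillaries that hangs into the brain ventricles, secretes cerebrospinal fluid and forms the barrier between blood and that fluid. It is not part of the hypothalamus, and any plexus that stays attached to a dissected sample adds its RNA to a bulk library. Enpp2 encodes autotaxin, a secreted enzyme that makes lysophosphatidic acid and that oligodendrocytes also express. Kl encodes α-klotho, the co-receptor of FGF23, Clic6 encodes a member of the intracellular chloride channel family, and Sostdc1 encodes a secreted antagonist of BMP and Wnt signalling. Of the genes without an entry, Ttr encodes a carrier of thyroid hormone that the plexus secretes, and Folr1 a folate receptor.

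The study asked which hypothalamic transcripts follow a single icv injection of FGF1 that lowers blood glucose for weeks in diabetic Lep^ob/ob mice. All 47 mice are males of the leptin-deficient ob/ob strain, given as 11 weeks old, and each gave 1 hypothalamic library with no pooling of animals. Mice were collected 1, 5 or 42 days after 3 µg of FGF1 or vehicle, and vehicle-treated mice were pair-fed to the intake under FGF1. The tissue was taken as a punch of the hypothalamus. Since all mice lack leptin, no group shows the response of animals with intact leptin. The groups hold 4 vehicle-treated and 10 FGF1-treated mice on Day 1, and 5 vehicle-treated and 5 FGF1-treated mice on Day 42. On Day 5 there are 9 FGF1-treated mice and 14 that received vehicle, with the label non-diabetic for 7 and diabetic for 7. The vehicle-treated mice of Days 1 and 42 are also labelled non-diabetic, although the paper's methods leave non-diabetic mice out of the study. Both vehicle groups of Day 5 are therefore kept apart below. The libraries of each day carry a preparation code of their own. Effects of day and of preparation on a level cannot be told apart, and levels were not tested between days.

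Levels are given as CPM, the counts of a gene relative to the library total after scaling by TMM, and differences as log2 fold changes from edgeR with their standard error. A gene passed a comparison with an adjusted p-value under 0.05 over all 14221 genes and an absolute log2 fold change above 0.5. Exact permutation p-values compare the log2 levels of 2 groups for 1 gene and are not adjusted. All p-values measure the spread among mice, since each library is 1 mouse. Replicate numbers follow the order of the deposited samples and carry no other meaning. In bulk RNA, fewer cells of a type and less RNA per cell cannot be told apart.

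Read depth limits Sostdc1 most and Enpp2 least. FGF1 replicate 1 of Day 1 has 1243280 counts in all, of which 150 fall on Enpp2, 13 on Kl, 13 on Clic6 and 4 on Sostdc1. In the other 46 libraries the total is at least 7579695, and the lowest count of Sostdc1 is 10. On Day 5, FGF1 replicates 8 and 9 have 30009258 and 27922117 counts, while the other 21 libraries have 7579695 to 12451642, so depth is not balanced between the groups of that day. Their Enpp2 is 263 and 285 CPM and their Clic6 13.9 and 15.0 CPM. With either left out, 0 of 4 genes pass against each vehicle group of Day 5; leaving out both at once was not run. Of 14 marker genes of hypothalamic neurons, 13 are in the table, with none at 0 throughout a group. Their summed level runs from 413 to 1564 CPM in single libraries, so markers of the labelled tissue are present in all 47 libraries. Pmch, the most abundant over all libraries, has group means of 641 to 936 CPM on Days 1 and 42 and of 63.2 to 69.5 CPM on Day 5.

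A single library stands apart and bears on much of what follows. In FGF1 replicate 5 of Day 42 the 4 genes together reach 1957 CPM, while the other 4 libraries of that group lie at 383, 358, 309 and 415 CPM. Against the mean of those 4 libraries, Enpp2 is 5.25-fold, Kl 9.77-fold, Clic6 3.88-fold and Sostdc1 13.3-fold higher. For each of the 4 genes it holds the highest level of all 47 libraries, whereas 6.11% of all genes are highest there. Among all genes, 423 of 14221 (2.97%) are over 2-fold higher in it than in the other 4 libraries. Results are therefore given with and without this library, a choice made after its levels were seen.

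The library carries more than the 4 genes. Of 44 other genes of the choroid plexus, listed from knowledge of the tissue, 31 are in the table, and 17 of these are over 2-fold higher in it (median 2.76-fold). The coagulation factor gene F5 is 21.1-fold, 1500015O10Rik 20.2-fold, the carbonic anhydrase gene Car12 12.1-fold, the transcription factor gene Msx1 6.96-fold, the potassium channel gene Kcnj13 6.54-fold and Otx2 4.51-fold higher. Lower in this library are Lmx1a (0.712-fold), Htr2c (0.822-fold) and Prlr (0.886-fold). Slc5a5 (1.08-fold), Spint2 (1.17-fold), Slc12a2 (1.18-fold) and Slc13a4 (1.27-fold) differ little. Markers of cortex and hippocampus move as well: all 4 of 6 that are in the table are over 2-fold higher (median 7.15-fold). Their summed level is 707 CPM against 40.9, 106, 72.2 and 107 CPM in the other 4 libraries, and Slc17a7, the most abundant, is 10.5-fold higher. Markers of hypothalamic neurons lie lower (median 0.509-fold, 6 of 13 below 0.5-fold). Ependymal markers (median 1.35-fold) and oligodendrocyte markers (median 1.12-fold) have no gene over 2-fold. Of 7 tanycyte markers 1, Crym, is over 2-fold (6.74-fold). Below 0.5-fold are 2 of 4 blood markers and 1 of 2 pituitary markers. Levels of plexus, cortical and hypothalamic markers thus differ together in this library, and the part of the dissection in this was not tested.

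**Figure D1:**
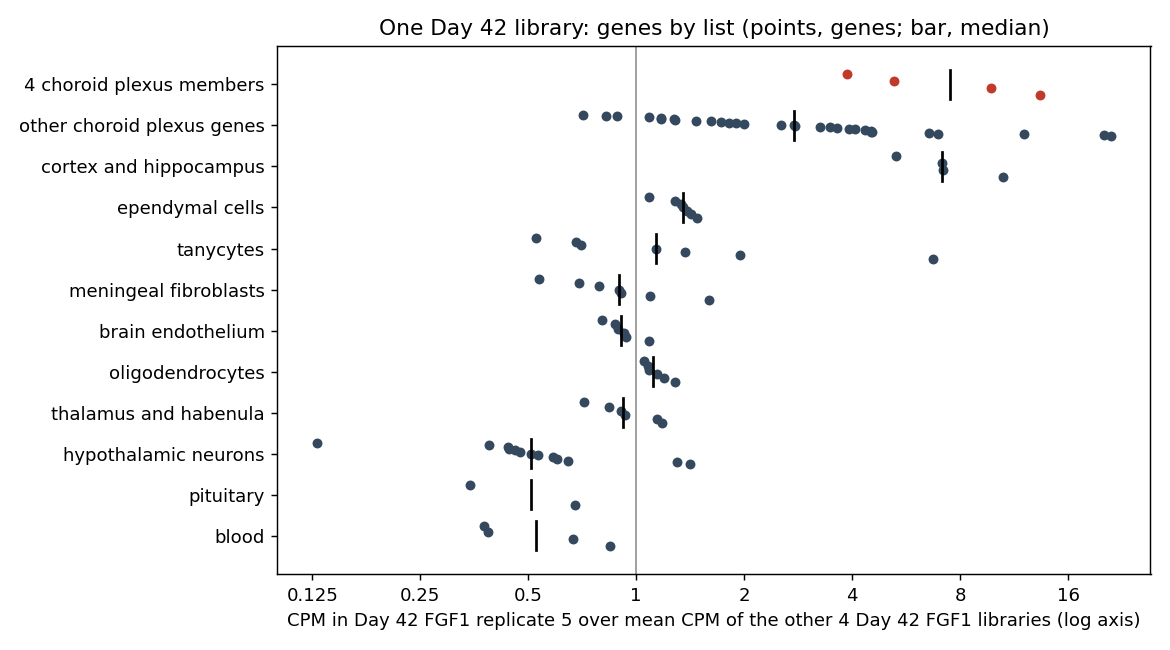
Levels in FGF1 replicate 5 of Day 42 relative to the mean of the other 4 FGF1-treated mice of that day, on a log2 scale, for each gene of the lists. The 4 choroid plexus genes, most other genes of the plexus and the cortical markers lie above the line of equal levels, and markers of hypothalamic neurons lie mostly below it.

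The excess in this library does not have the proportions of the other libraries. Over the mean of the other 4 mice, it holds 1437 CPM more Enpp2, 88.5 CPM more Kl, 47.6 CPM more Clic6 and 17.6 CPM more Sostdc1. Kl makes 6.15% of the Enpp2 amount in this excess and 2.98% in the other 4 libraries, and Sostdc1 makes 1.23% and 0.422%. Clic6 goes the other way, with 3.31% of the Enpp2 amount in the excess and 4.88% elsewhere. Relative to Enpp2, the excess thus holds more Kl and Sostdc1 and less Clic6 than the other 4 libraries do. Whether it comes from added tissue or from more RNA per cell was not tested.

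The genes differ widely in level. Per kilobase of exon, the group medians run from 16.1 to 61.1 CPM for Enpp2, 2.92 to 8.85 for Clic6, 0.830 to 1.40 for Kl and 0.773 to 1.16 for Sostdc1, and the order of Kl and Sostdc1 differs between groups. Enpp2 therefore makes up most of any sum over the 4 genes. The genes lie on 4 chromosomes: Enpp2 on 15 (54838901 to 54952892, minus strand, 30 merged exons of 5779 bases), Kl on 5 (150952607 to 150993817, 5 exons of 9328 bases), Clic6 on 16 (92485736 to 92541243, 7 exons of 3914 bases) and Sostdc1 on 12 (36314139 to 36318452, 2 exons of 1781 bases), the last 3 on the plus strand of GRCm38. An exon of Enpp2 overlaps one of Gm26684 on the opposite strand, and how the counting treated such reads is not given. Kl, Clic6 and Sostdc1 overlap no exon of another gene.

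Across the 7 groups, the median of Enpp2 falls from 353 CPM in FGF1-treated mice of Day 42 through 306 in vehicle-treated mice of that day and 273 in FGF1-treated mice of Day 5. It goes on through 182 and 172 in the non-diabetic and diabetic vehicle groups of Day 5 and 169 in vehicle-treated mice of Day 1 to 93.1 in FGF1-treated mice of Day 1. Only the last step separates groups whose ranges do not overlap, and that step lies within Day 1. Clic6 has a different order, with 34.6 CPM in vehicle-treated mice of Day 1 at the top and 11.4 CPM in FGF1-treated mice of the same day at the bottom. The first group is clear of the next in that order, and the other neighbours overlap. For Kl (medians of 7.75 to 13.1 CPM) and Sostdc1 (1.38 to 2.06 CPM) all neighbours in the order of the groups overlap. Leaving aside FGF1 replicate 5 of Day 42, single libraries of Kl lie between 6.36 and 14.8 CPM and those of Sostdc1 between 0.996 and 3.26 CPM.

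**Figure D2:**
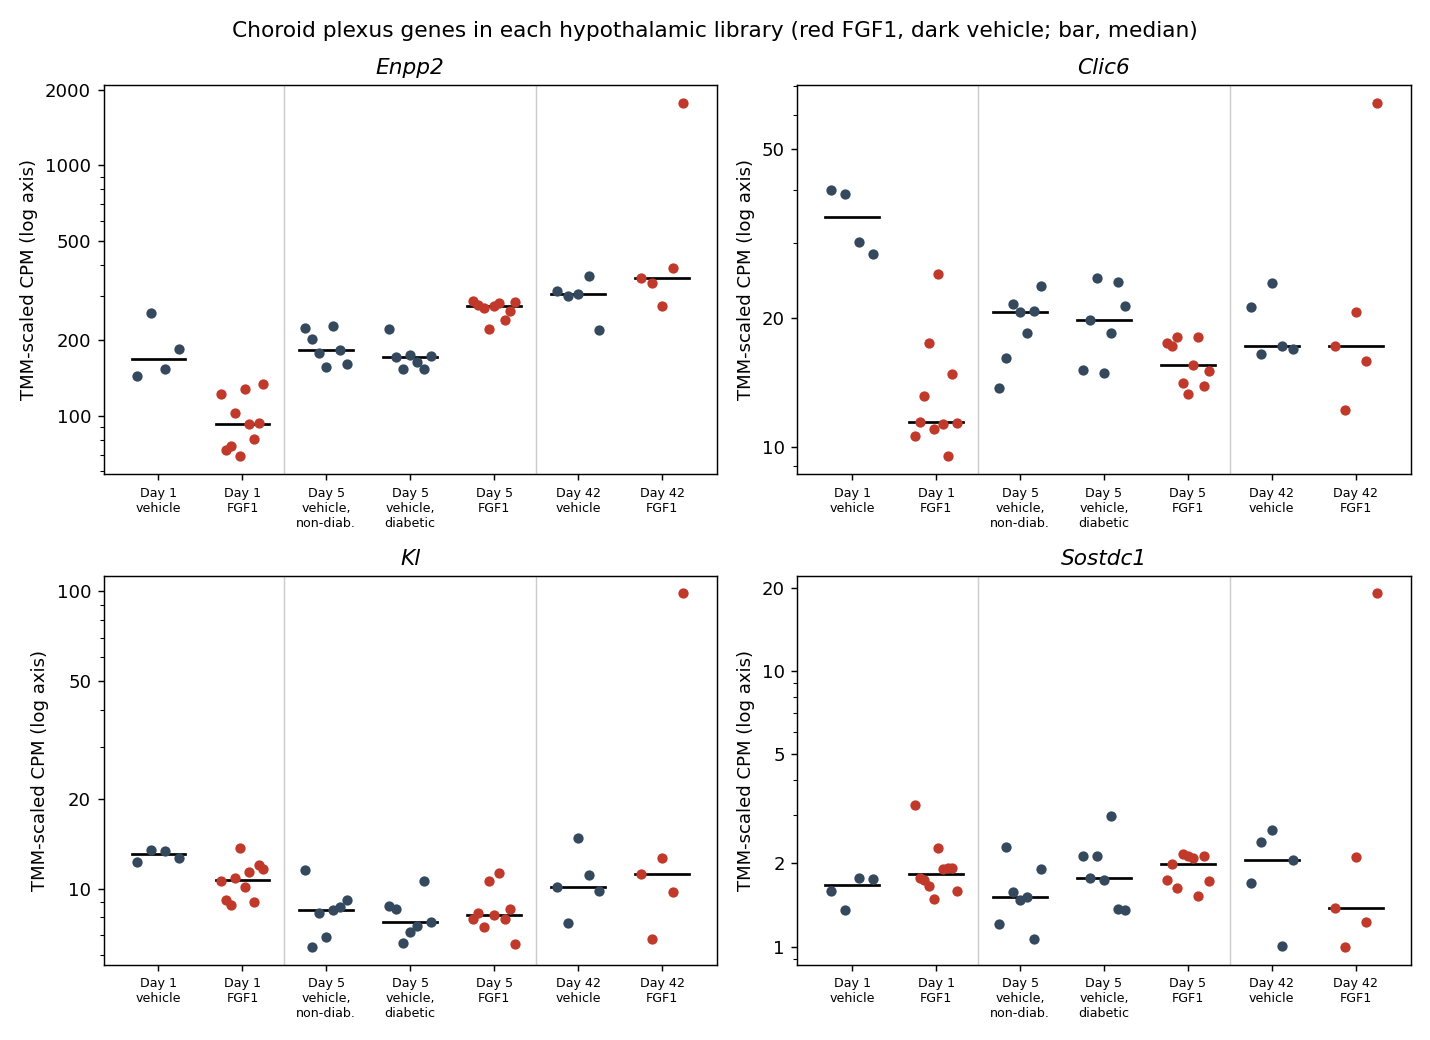
Enpp2, Kl, Clic6 and Sostdc1 in each of the 47 libraries, as TMM-scaled CPM on a log axis, by treatment and day. Horizontal bars are group medians. FGF1 replicate 5 of Day 42 is the highest point of every panel.

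On Day 1, Clic6 was 40.1, 39.0, 30.3 and 28.3 CPM in the vehicle-treated mice. In the 10 FGF1-treated mice it ran from 9.51 through a median of 11.4 to 25.4 CPM. All 10 lay below all vehicle-treated mice, the nearest being FGF1 replicate 6. In that library the sums of oligodendrocyte markers (4064 CPM) and cortical markers (21.3 CPM) also lie within the range of the vehicle group, while those of the other 9 FGF1-treated mice run from 2241 to 3401 CPM and from 37.5 to 49.3 CPM. Clic6 fell by 1.31 ± 0.23 on the log2 scale (edgeR adjusted p = 6.74e-06, exact permutation p = 0.002). Without FGF1 replicate 5 of Day 42, which enters the shared estimate of spread, the Clic6 value is -1.31 ± 0.16 (edgeR adjusted p = 4.91e-09). Over the other alternatives and libraries left out, the adjusted p of Clic6 runs from 7.46e-08 to 0.000108 with edgeR, DESeq2 or limma.

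Enpp2 in the same vehicle-treated mice was 145, 257, 153 and 184 CPM. In FGF1-treated mice it ran from 68.9 through 93.1 to 134 CPM. The groups do not overlap, and vehicle replicate 2 lies highest by far. That library also has the highest sums of the vehicle group for markers of fibroblasts (217 CPM, the others 110 to 148), endothelium (241 CPM, the others 164 to 184) and tanycytes (221 CPM, the others 151 to 180) and for the other choroid plexus genes (566 CPM, the others 460 to 484). Slc12a2, the most abundant of the other choroid plexus genes over all libraries, is 1.18-fold in FGF1 replicate 5 of Day 42. Whether the sum of those genes follows the plexus was not tested. Enpp2 fell by 0.94 ± 0.25 (edgeR adjusted p = 0.00171, exact permutation p = 0.002), and by 0.94 ± 0.14 without FGF1 replicate 5 of Day 42 (edgeR adjusted p = 2.28e-07). Leaving out vehicle replicate 2 gives the smallest difference for Enpp2, -0.74, and the highest adjusted p of all alternatives with edgeR, DESeq2 or limma, 0.0273.

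Kl in vehicle-treated mice of Day 1 was 12.3, 13.5, 13.4 and 12.7 CPM, a narrow range. FGF1-treated mice ran from 8.82 through 10.7 to 13.7 CPM, with 9 of 10 below all vehicle-treated mice and replicate 5 above them. The log2 fold change is -0.27 ± 0.33 (edgeR adjusted p = 0.527; 0.108 without FGF1 replicate 5 of Day 42), while the exact permutation test within the day gives p = 0.014. Sostdc1 was 1.59, 1.36, 1.77 and 1.75 CPM in vehicle-treated mice and 1.48 to 3.26 CPM in FGF1-treated mice (median 1.84). Its groups overlap, with 7 of 10 FGF1-treated mice above the vehicle median, and its highest value is the shallow library with 4 counts. For Sostdc1 the log2 fold change is 0.18 ± 0.40 (edgeR adjusted p = 0.745, exact permutation p = 0.116).

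In sum, 2 of 4 genes, Clic6 and Enpp2, passed on Day 1, where 19.5% of all genes passed. Both were lower, a direction in which 8.05% of all genes passed. In the other direction edgeR called 0 of 4, where 11.5% of all genes passed, and 0 of 4 had an unadjusted p under 0.05 there. DESeq2 and limma also called the same 2 genes and none higher, DESeq2 with no p-value for Sostdc1. Groups without overlap were found for 2 of 4 genes, and for 14.4% of all genes.

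The 4 genes did not move in parallel on Day 1. The log2 ratio of a gene to the mean of the other 3 in the same library, taken without a pseudocount, does not change when all 4 change by the same factor. Leaving out the pseudocount was chosen after seeing the data. For Sostdc1 this ratio was -4.74 ± 0.35 (mean ± SD) in vehicle-treated and -3.63 ± 0.35 in FGF1-treated mice, and the groups do not overlap, with or without FGF1 replicate 1 of Day 1. For Clic6 it was 1.13 ± 0.30 and 0.070 ± 0.42, with overlap of the groups. Enpp2 had ratios of 4.33 ± 0.39 and 3.88 ± 0.27, and Kl of -0.72 ± 0.10 and -0.32 ± 0.34. With log2(CPM + 0.5) the shifts are -1.01 for Clic6 and 1.04 for Sostdc1, beside -1.06 and 1.11 here. The shift of Sostdc1 includes the lower Enpp2 and Clic6, which are among the other 3 genes. Sostdc1 alone had a log2 fold change of 0.18 and did not pass. These ratios are descriptions and were not tested.

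The other genes of the choroid plexus also went both ways on Day 1. Of the 31 in the table, 13 had a positive log2 fold change, with a median of -0.11 beside 0.0067 for all genes. Passing and lower were 7: the channel gene Kcnj13 (-3.51), Wfikkn2 (-2.32), the sulfate transporter gene Slc13a4 (-1.96), Igf2 (-1.72), Bmp6 (-1.18), the transcription factor gene Lmx1a (-1.14) and the serotonin receptor gene Htr2c (-0.58). Of all genes, 8.05% passed lower and 11.5% higher. Passing and higher were 6 of the 31, among them the retinol uptake receptor gene Stra6 (2.00), Igfbp2 (1.56), Sgms2 (1.14), Lbp (0.82) and Cldn1 (0.76). These genes also pass, in the same directions, without FGF1 replicate 5 of Day 42. With 1 library of Day 1 left out, Lbp is lost without FGF1 replicate 5 or 8 or vehicle replicate 1, 3 or 4, Cldn1 without FGF1 replicate 4 or vehicle replicate 1, 2 or 4, and Htr2c without vehicle replicate 2. In FGF1 replicate 5 of Day 42, Kcnj13 and Wfikkn2 of the lower genes are 6.54-fold and 3.63-fold higher. Slc13a4 (1.27-fold), Igf2 (1.89-fold), Bmp6 (1.29-fold), Lmx1a (0.712-fold) and Htr2c (0.822-fold) are not over 2-fold there. Of the named higher genes, Sgms2 is 1.47-fold there, and Stra6, Igfbp2, Lbp and Cldn1 are 2.53-fold to 4.35-fold. Whether the genes under 2-fold follow the plexus was not tested.

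The separation of some of these genes can be read from single libraries. Kcnj13 was 1.83 to 3.70 CPM in vehicle-treated mice and 0 to 0.815 CPM in FGF1-treated mice (median 0.0859). Sgms2 was 7.06 to 8.75 CPM in vehicle-treated and 12.8 to 22.2 CPM in FGF1-treated mice. For both genes the groups do not overlap, in opposite directions. Stra6 overlaps, with 2.54 to 4.74 CPM in vehicle-treated and 2.44 to 33.2 CPM in FGF1-treated mice. The limits of 0.815 CPM for Kcnj13 and 2.44 CPM for Stra6 are those of the shallow FGF1 replicate 1, on very few counts. Of the 10 genes of the list with the highest mean CPM, Slc12a2, Prlr, Slc4a2, Spint2, Slc31a1 and Slc5a5 did not pass on Day 1.

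Markers of other cell types moved on Day 1 as well. Oligodendrocyte markers had negative log2 fold changes in 6 of 6 (median -0.59), and 5 of 6 passed, with Mbp, Mog, Mobp and Cnp among them. Their summed level was 4232, 5087, 3568 and 5225 CPM in vehicle-treated mice and 2241 to 4064 CPM in FGF1-treated mice (median 2488). Ependymal markers had 4 of 7 lower and passing (median -0.74), and their sum was 85.0 to 121 CPM in vehicle-treated and 52.6 to 85.8 CPM in FGF1-treated mice, with Rarres2 the most abundant in both groups (mean 24.7 and 19.8 CPM). Markers of meningeal fibroblasts split, with 3 of 7 passing higher and 2 of 7 lower (sum 110 to 217 against 64.4 to 434 CPM, Dcn most abundant). The 64.4 CPM is that of the shallow FGF1 replicate 1, and the next lowest FGF1-treated mouse has 108 CPM. No marker of these lists was at 0 in all libraries of a group. Their part in the lower Enpp2 and Clic6 was not tested.

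The remaining lists gave fewer passing genes on Day 1. Tanycyte markers, 7 of 8 in the table, had Adm higher and Col23a1 and Frzb lower (median -0.44), and without FGF1 replicate 5 of Day 42 also Crym higher. Of 6 endothelial markers Flt1 passed, higher, and of 13 neuronal markers Pomc and Gal passed higher and Pmch lower. Among cortical markers Lamp5 passed, higher, with 3 of 4 positive (median 0.72) and a sum of 20.3 to 23.8 CPM in vehicle-treated and 21.3 to 49.3 CPM in FGF1-treated mice (median 44.3). With edgeR, 0 of 6 thalamic, 0 of 2 pituitary and 0 of 4 blood markers passed on Day 1, with none of these 12 at an unadjusted p under 0.05. DESeq2 and limma were not run on the marker lists.

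On Day 5 the sign of Enpp2 was the opposite. It ran from 156 through 182 to 227 CPM in vehicle-treated mice labelled non-diabetic, from 153 through 172 to 221 CPM in those labelled diabetic, and from 221 through 273 to 287 CPM in FGF1-treated mice. Of the 9 FGF1-treated mice, 8 lay above all non-diabetic and 9 above all diabetic vehicle-treated mice, the lowest of them by a margin that rounding hides. The highest mouse of the diabetic group is its replicate 1, which also has the highest sum of oligodendrocyte markers (6020 CPM, the other 6 mice 4020 to 4698), of cortical markers (86.5 CPM, the others 21.9 to 40.9) and of thalamic markers (662 CPM, the others 260 to 535) in that group. Replicate 1 of the non-diabetic group, at 223 CPM of Enpp2, likewise has the highest sums of its group for oligodendrocyte (5871 CPM, the others 4430 to 5692), cortical (72.7 CPM, the others 23.4 to 30.6) and thalamic markers (504 CPM, the others 320 to 486). The highest Enpp2 of the non-diabetic group, 227 CPM, is in its replicate 4. That library has sums of 5692 CPM for oligodendrocyte, 29.1 CPM for cortical and 371 CPM for thalamic markers. Replicate 1 of each vehicle group also has the highest sum of the other choroid plexus genes (615 CPM diabetic, 620 CPM non-diabetic). Whether that sum follows the plexus was not tested. The part of the dissection in any of these libraries was not tested. Against the non-diabetic group the log2 fold change is 0.49 ± 0.22 (edgeR adjusted p = 0.245, exact permutation p = 0.000524). Against the diabetic group it is 0.62 ± 0.22 (edgeR adjusted p = 0.0698, exact permutation p = 0.000175). The 2 comparisons share their FGF1-treated mice.

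The edgeR result for Enpp2 on Day 5 depends on FGF1 replicate 5 of Day 42, through the spread shared by all groups. Without that library the difference from the non-diabetic group is 0.49 ± 0.12 (edgeR adjusted p = 0.00984), below the fold-change threshold. The difference from the diabetic group is then 0.62 ± 0.12 and passes (edgeR adjusted p = 0.000435). Over all alternatives and libraries left out, the adjusted p of Enpp2 with edgeR, DESeq2 or limma runs from 1.41e-05 to 0.398 against the non-diabetic group. Against the diabetic group it runs from 9.92e-08 to 0.120, the lowest with sample quality weights in both.

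Clic6 had negative log2 fold changes on Day 5 and did not pass. It ran from 13.8 through 20.7 to 23.8 CPM in the non-diabetic and from 14.9 through 19.8 to 24.8 CPM in the diabetic vehicle group, and from 13.3 through 15.6 to 18.1 CPM in FGF1-treated mice. All 9 FGF1-treated mice lay below the median of each vehicle group, with overlap of the ranges. The log2 fold changes are -0.29 ± 0.22 (edgeR adjusted p = 0.587, exact permutation p = 0.0325) and -0.32 ± 0.22 (edgeR adjusted p = 0.415, exact permutation p = 0.0260).

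Kl on Day 5 ran from 6.36 through 8.46 to 11.6 CPM in the non-diabetic group, 6.54 through 7.75 to 10.6 CPM in the diabetic group and 6.49 through 8.14 to 11.3 CPM in FGF1-treated mice. The 3 ranges nearly coincide. Its log2 fold changes are -0.0030 ± 0.32 and 0.071 ± 0.32 (edgeR adjusted p = 0.999 and 0.945, exact permutation p = 0.939 and 0.576). Sostdc1 ran from 1.07 through 1.51 to 2.30 CPM, 1.36 through 1.76 to 2.98 CPM and 1.53 through 1.98 to 2.16 CPM in the same groups, on 10 to 66 counts. All 9 FGF1-treated mice lie above the non-diabetic median and 5 of 9 above the diabetic median, with wide overlap. For Sostdc1 the log2 fold changes are 0.27 ± 0.43 and -0.037 ± 0.41 (edgeR adjusted p = 0.851 and 0.980, exact permutation p = 0.0603 and 0.943).

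With edgeR, 0 of 4 genes passed on Day 5 against the non-diabetic group, where 1.54% of all genes passed, and 0 of 4 against the diabetic group, where 2.85% passed. Only Enpp2 had an unadjusted p under 0.05 in each. DESeq2 called 0 of the 3 genes with a p-value in both. With limma, quantile normalization called 0 and 1, and sample quality weights 1 and 1, each time Enpp2. The shares of 1.54% and 2.85% are from edgeR, and those under limma are not given here. Ranges without overlap were found for 0 of 4 genes against the non-diabetic group (3.93% of all genes) and for 1 of 4, Enpp2, against the diabetic group (6.08% of all genes).

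Between the vehicle groups of Day 5, labelled diabetic and non-diabetic, edgeR called 0 of 4 genes and 0% of all genes, with 193 genes at an unadjusted p under 0.05. DESeq2 called 0 of 3, with no p-value for Sostdc1, and limma 0 of 4, and none of the 4 had an unadjusted p under 0.05 with edgeR. The log2 differences, diabetic against non-diabetic, are -0.13 for Enpp2, -0.074 for Kl, 0.036 for Clic6 and 0.31 for Sostdc1, with overlapping ranges for all 4.

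Relative to the other 3 genes, again without a pseudocount, Enpp2 was at 5.40 ± 0.19 in FGF1-treated mice of Day 5, 4.91 ± 0.30 in the non-diabetic and 4.70 ± 0.26 in the diabetic vehicle group. For Clic6 the values are -0.033 ± 0.26, 0.51 ± 0.36 and 0.51 ± 0.40. The ratios of Kl differ from those of the non-diabetic and diabetic vehicle groups by -0.16 and -0.045, and those of Sostdc1 by 0.22 and -0.11. The mean ratio of Enpp2 is thus higher and that of Clic6 lower under FGF1, with overlap of the groups throughout, and these ratios were not tested.

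Of the other choroid plexus genes on Day 5, 1 of 31 passed against each vehicle group, Igf2 both times. Of all genes, 1.54% passed against the non-diabetic and 2.85% against the diabetic group. It ran from 9.05 through 24.5 to 49.0 CPM in the non-diabetic group, from 14.2 through 39.9 to 48.7 CPM in the diabetic group and from 26.9 through 60.9 to 105 CPM in FGF1-treated mice. The log2 fold changes are 1.22 ± 0.29 (edgeR adjusted p = 0.00610) and 0.88 ± 0.29 (edgeR adjusted p = 0.0411). The median over the 31 genes was 0.19 against the non-diabetic group, with 22 positive, and 0.060 against the diabetic group, with 20 positive. Against the diabetic group Igf2 no longer passes, and 0 of 31 genes pass, when any 1 of vehicle replicates 2, 5, 6 and 7 or FGF1 replicates 2, 3, 4, 6, 7 and 8 is left out. Against the non-diabetic group Igf2 passes with each library left out, and 2 of 31 pass without FGF1 replicate 9 or vehicle replicate 4 or 6 (1.35% to 1.48% of all genes). Without FGF1 replicate 5 of Day 42, 2 of 31 pass against each vehicle group (1.60% and 2.93% of all genes), Igf2 included, and against the diabetic group the other is F5. Against the non-diabetic group 0 to 6 of 31 pass across the other settings, the most with sample quality weights. The shares of all genes under those settings are not given here, so this range is not read as a result on these genes.

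Markers of oligodendrocytes, which also express Enpp2, had positive log2 fold changes on Day 5 in 6 of 6 against each vehicle group (median 0.33 and 0.47). Of these 6, 2 passed against each group, Cnp among them. Their summed level ran from 6018 through 6626 to 6900 CPM in FGF1-treated mice, from 4430 through 4660 to 5871 CPM in the non-diabetic group and from 4020 through 4489 to 6020 CPM in the diabetic group. None of them is at 0 throughout a group. Markers of meningeal fibroblasts had positive log2 fold changes in 7 of 7, with Lum and Slc6a13 passing against the non-diabetic group. Against the diabetic group edgeR called 0 of 7, with 5 at an unadjusted p under 0.05, and Lum passed once FGF1 replicate 5 of Day 42 was left out. Their sum was 71.4 to 268 CPM in FGF1-treated mice, 47.9 to 141 CPM in the non-diabetic and 59.4 to 151 CPM in the diabetic group, with Dcn the most abundant. Ependymal markers had positive log2 fold changes in 5 of 7 and 6 of 7 against the non-diabetic and diabetic groups (median 0.17 and 0.43), with 0 and 1, Dynlrb2, passing. Their sum was 61.7 to 80.7 CPM in FGF1-treated mice, 48.7 to 72.1 CPM in the non-diabetic and 40.6 to 61.2 CPM in the diabetic group, so the ranges overlap only with the non-diabetic group. Of 7 tanycyte markers 1, Gpr50, passed against each group, higher (0.90 and 0.83). Whether these cells have a part in the levels of Enpp2 and Igf2 was not tested.

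The FGF1 effect changed from Day 1 to Day 5 for Enpp2 and Clic6, tested as the difference of the effects with the non-diabetic group as control on Day 5. For Enpp2 the change is 1.43 ± 0.33 (edgeR adjusted p = 0.000946), and for Clic6 it is 1.02 ± 0.32 (edgeR adjusted p = 0.0143). On Day 5 itself neither gene passed against the non-diabetic group, where the log2 fold change is positive for Enpp2 and negative for Clic6. For Kl the change is 0.27 ± 0.46 (edgeR adjusted p = 0.712) and for Sostdc1 it is 0.095 ± 0.59 (edgeR adjusted p = 0.931). Thus 2 of 4 genes passed where 15.8% of all genes did, and the same 2 pass without FGF1 replicate 5 of Day 42. Since each day has its own preparation, this change cannot be told apart from a difference between preparations in the size of the effect.

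Of the 31 other choroid plexus genes, 7 passed this change as higher and 3 as lower. Of all genes, 7.28% passed as higher and 8.52% as lower. Higher were Kcnj13 (3.42), Igf2 (2.94), Wfikkn2 (2.85), Slc13a4 (2.55), Bmp6 (1.76), Lmx1a (1.08) and the retinol dehydrogenase gene Rdh5 (0.62). Among the 3 lower were Stra6 (-1.81) and Sgms2 (-1.09). Of the oligodendrocyte markers 5 of 6 passed, all higher (median over the 6 of 1.04), and of the ependymal markers 4 of 7 passed, all higher (median over the 7 of 0.74). Tanycyte markers split, with 4 of 7 higher and 2 of 7 lower, as did markers of meningeal fibroblasts, with 2 of 7 higher and 1 of 7 lower. Of 4 cortical markers 1 passed, lower (median over the 4 of -0.73). No marker of the remaining lists passed.

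On Day 42, Enpp2 was 315, 300, 306, 362 and 219 CPM in vehicle-treated and 353, 339, 273, 388 and 1776 CPM in FGF1-treated mice. Apart from replicate 5, FGF1-treated mice lie within or slightly above the vehicle range. The log2 fold change is 1.06 ± 0.27 (edgeR adjusted p = 0.285, exact permutation p = 0.167), and 0.17 ± 0.16 without replicate 5.

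Kl was 10.2, 7.68, 14.8, 11.1 and 9.79 CPM in vehicle-treated and 11.2, 6.75, 12.7, 9.76 and 98.6 CPM in FGF1-treated mice of Day 42. The first 4 FGF1-treated mice spread around the vehicle values on both sides. Its log2 fold change is 1.35 ± 0.36 (edgeR adjusted p = 0.310, exact permutation p = 0.643), and -0.079 ± 0.16 without replicate 5.

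Clic6 was 21.3, 16.5, 24.1, 17.2 and 17.0 CPM in vehicle-treated and 17.2, 12.2, 20.7, 15.9 and 64.1 CPM in FGF1-treated mice of that day. Without the last mouse the groups overlap, with FGF1 replicates 2 and 4 below all vehicle-treated mice. The log2 fold change is 0.42 ± 0.25 (edgeR adjusted p = 1, exact permutation p = 0.889), and -0.21 ± 0.19 without replicate 5. Sostdc1 was 1.70, 2.39, 2.66, 1.01 and 2.06 CPM in vehicle-treated and 1.38, 0.996, 2.11, 1.23 and 19.0 CPM in FGF1-treated mice. Apart from replicate 5, FGF1 replicates 1, 2 and 4 lie at the lower end of the vehicle range or just under it, and replicate 3 lies inside it. The log2 fold change is 1.28 ± 0.42 (edgeR adjusted p = 0.477, exact permutation p = 0.881), and -0.42 ± 0.21 without replicate 5 (edgeR unadjusted p = 0.0504).

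Thus on Day 42 edgeR called 0 of 4 genes and 0% of all genes, with 776 genes at an unadjusted p under 0.05, among them Enpp2, Kl and Sostdc1. DESeq2 called 0 of 3, with no p-value for Sostdc1, and limma 0 of 4. Groups without overlap were found for 0 of 4 genes and for 0.267% of all genes. Without replicate 5, edgeR again called 0 of 4 genes and 0% of all genes, with 318 genes at an unadjusted p under 0.05. With replicate 5 kept and FGF1 replicate 1 left out, 2 of 4 passed, Enpp2 and Kl, where 0.218% of all genes did. The smallest exact permutation p that 5 against 5 mice can give is 0.00794.

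The other choroid plexus genes follow the same library on Day 42. With it, 27 of 31 had a positive log2 fold change (median 0.29), and without it 12 of 31 (median -0.067). With edgeR 0 of 31 passed in either case, with 7 genes at an unadjusted p under 0.05 with the library and 1, Otx2, without it. With FGF1 replicate 1 left out in its place, 3 of 31 passed, Car12, F5 and 1500015O10Rik, where 0.218% of all genes did. DESeq2 called 0 of the 30 with an adjusted p, and limma 0 of 31. Cortical markers had positive log2 fold changes in 4 of 4 with replicate 5 (median 1.41) and in 3 of 4 without it (median 0.25), and edgeR called 0 of 4 in either case.

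From Day 5 to Day 42 the FGF1 effect changed by 0.57 for Enpp2, 1.35 for Kl, 0.71 for Clic6 and 1.00 for Sostdc1. With edgeR 0 of 4 passed, where 0.717% of all genes did, and Kl and Clic6 had an unadjusted p under 0.05. DESeq2 called 0 of 3, with no p-value for Sostdc1, and limma 0 of 4. Without FGF1 replicate 5 of Day 42 the changes are -0.32, -0.076, 0.074 and -0.69. Of the other choroid plexus genes Car12 passed (2.38, edgeR adjusted p = 0.0344), and without that library its change is 0.74 (edgeR adjusted p = 0.641). Car12 also no longer passes, and 0 of 31 genes pass, without any 1 of vehicle replicates 1, 2 and 4 of Day 42, vehicle replicates 3, 5, 6 and 7 of the non-diabetic group or FGF1 replicates 4, 5 and 8 of Day 5.

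From mouse to mouse the 4 genes vary together with this library included and hardly without it. Over all 47 libraries, the deviations of log2 levels from their group means correlate at r = 0.731 for Enpp2 with Kl, 0.561 for Enpp2 with Clic6 and 0.685 for Enpp2 with Sostdc1. The remaining pairs have r = 0.660 for Kl with Clic6, 0.767 for Kl with Sostdc1 and 0.612 for Clic6 with Sostdc1. Without FGF1 replicate 5 of Day 42 the 6 values are 0.064, 0.015, -0.045, 0.149, -0.0058 and 0.039 in the same order. These correlations over 46 or 47 libraries are descriptions without a test, and the pairs share genes and library size factors.

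Within single groups of at least 6 mice, 24 relations between pairs were examined and none passed after adjustment (lowest adjusted permutation p = 0.267 for Pearson and 0.198 for Spearman). The strongest is negative, between Clic6 and Sostdc1 in the 9 FGF1-treated mice of Day 5 (r = -0.789, exact permutation p = 0.0206; -0.713 without 2 extreme mice). Enpp2 and Clic6 are also negatively related in both vehicle groups of Day 5, with r = -0.789 (exact permutation p = 0.0381) in the 7 non-diabetic and r = -0.768 (exact permutation p = 0.0222) in the 7 diabetic mice. The same pair has r = 0.143 (exact permutation p = 0.711) in the 9 FGF1-treated mice of Day 5. In the 10 FGF1-treated mice of Day 1 it has r = 0.408 (permutation p = 0.246).

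The genes whose deviations are most like the mean deviation of the 4 genes, among 14119 genes with a mean of at least 1 CPM, were Vxn (r = 0.910), Iqgap2 (0.890), Tmem178 (0.847), Dkk3 (0.846), Ipcef1 (0.829), Lmo4 (0.825), Mas1 (0.797), Ext1 (0.796), Ephx4 (0.789) and Zbtb18 (0.788). These 10 rest on FGF1 replicate 5 of Day 42, where Mas1 is 21.5-fold and Vxn 6.47-fold higher than in the other 4 mice of its group. With Spearman's correlation 0 of the 10 are among the first 10, which Nr3c2 (0.730) and Tcf4 (0.704) then lead. Without the 2 libraries of most extreme mean deviation, FGF1 replicates 5 and 2 of Day 42, 0 of the 10 are shared either, and Slit2 (r = 0.698) and Cnmd (0.697) come first. None of the 10 is on the list of other choroid plexus genes.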

How the data were processed

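The authors aligned the reads with STAR and deposited raw counts per gene for 47 libraries, each from 1 mouse. The labels and the paper name the build GRCh38 for these mouse reads, which is read here as GRCm38. The labels also name DESeq2. The counting program is not given in the sources used here, nor is its strand setting, although the library kit is strand-specific. The quantile normalization that the paper describes is not in these counts.

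Counts were scaled by TMM and fitted with edgeR 4.0.16 under R 4.3.3, with 1 mean for each group of treatment and day. The filter filterByExpr removed 0 of 14221 genes. Each contrast was tested by the quasi-likelihood F test and adjusted by Benjamini-Hochberg over all genes, with thresholds of 0.05 on the adjusted p and 0.5 on the absolute log2 fold change. Exact permutation tests and correlations used log2(CPM + 0.5), with scipy 1.17.1 and pandas 2.3.3 under Python 3.11.15. For the group of 10 mice, the p-values of correlations come from random permutations. Total counts per library had medians of 38189874 and 33965099 (vehicle, FGF1) on Day 1, 8937263, 10052056 and 9411647 (non-diabetic vehicle, diabetic vehicle, FGF1) on Day 5, where FGF1 replicates 8 and 9 have 30009258 and 27922117, and 39451421 and 40038883 on Day 42. Gene positions come from GENCODE annotation of GRCm38.

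The 6 genes and the lists were chosen with earlier results of these data known. Named are the 4 genes in the table, most of the other choroid plexus genes that pass or are most abundant, and the 10 genes most like the mean deviation of the 4. Library names and further genes were chosen after their values were seen. Planned correlations with Ttr were replaced by the 6 pairs of the 4 genes. The alternatives tried were a DESeq2 1.42.0 fit, edgeR with the size factors of DESeq2, limma 3.58.1 after quantile normalization or with weights for sample quality, no filter, at least 10 counts in every library, each day alone, no fold-change threshold, merged vehicle groups of Day 5, CPM of the raw total and each library left out in turn. Leaving out FGF1 replicate 5 of Day 42 from the comparisons of Days 1 and 5 was added after seeing the data, as were ratios between the 4 genes without a pseudocount. The programs were tested on simulated data. The single-cell data were left out, since the genes were defined in the bulk table.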

Additional observations from a re-analysis of the deposited data

Results flagged for a closer look

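In 5 of 28 groups of single genes, the extreme library was separated from the nearest other library by an unusually large part of the group's range. Chance gives this in about 1 in 20 groups. In FGF1 replicate 5 of Day 42 it holds for Enpp2 (1776 CPM), Kl (98.6 CPM) and Sostdc1 (19.0 CPM), each the highest of 5 mice. In the vehicle group of Day 5 labelled diabetic, Enpp2 is highest in replicate 1 at 221 CPM, apart from the other 6 mice; this library also has the highest sums of oligodendrocyte, cortical and thalamic markers in its group. In FGF1 replicate 1 of Day 1, the shallowest library, Sostdc1 reaches 3.26 CPM on 4 counts. The FGF1 effect differs between Day 1 and Day 5 by 1.43 on the log2 scale for Enpp2 and by 1.02 for Clic6, each by a test of the difference itself with edgeR.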

How the results depend on the processing

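The lower Enpp2 and Clic6 on Day 1, and their change from Day 1 to Day 5, passed under every alternative that could give them and with each library left out. Fitting each day alone gives no change between days. Of 221 log2 fold changes of the 4 genes under other settings, 207 kept direction and side of the threshold, 5 passed newly and 9 changed sign. Of 524 with a library left out, 500 kept both, 3 passed newly and 21 changed sign. On Day 5, 1 gene, Enpp2, passed against the non-diabetic group with sample quality weights and with merged vehicle groups, and 1 against the diabetic group with weights, quantile normalization or each day fitted alone. The shares of all genes that passed under these settings are not given here. With a library left out, 0 to 1 passed against the diabetic group (2.45% to 2.93% of all genes) and 0 to 2 on Day 42 (0% to 0.218% of all genes).

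Sign changes were as follows, and the cause was not tested. With at least 10 counts in every library, Kl against the non-diabetic group became 0.016. With merged vehicle groups it became 0.034, and the change of Sostdc1 from Day 1 to Day 5 became -0.074. With quality weights, Day 42 gave -0.013 for Kl, -0.19 for Clic6 and -0.11 for Sostdc1, and the change from Day 5 to Day 42 gave -0.26 for Enpp2, -0.0097 for Kl and -0.44 for Sostdc1. Leaving out a library moved Kl against the non-diabetic group from -0.062 to 0.089, and Sostdc1 against the diabetic group from -0.11 to 0.11. Between the vehicle groups it moved Kl from -0.14 to 0.019 and Clic6 from -0.032 to 0.095. On Day 42 the ranges were -0.079 to 1.60 for Kl, -0.21 to 0.60 for Clic6 and -0.42 to 1.54 for Sostdc1. For the change from Day 5 to Day 42 they were -0.32 to 0.76 for Enpp2, -0.076 to 1.60 for Kl and -0.69 to 1.26 for Sostdc1.

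On CPM of the raw total, 27 of 28 group medians moved by less than 1 SD. The exception is Kl in vehicle-treated mice of Day 1, at 12.3 CPM. Among other choroid plexus genes on Day 1, 6 to 14 passed across settings, the fewest with at least 10 counts in every library, where fewer genes were tested. The share of all genes that passed under each of these settings is not given here, so the range is not read as a result on these genes. DESeq2 gave no p-value for Sostdc1 in any comparison. On Day 5 the 10 to 66 counts per library limit the precision of Sostdc1. Genes absent from the table could not be examined. No paired analysis was possible because replicate numbers name the order of the samples and link no mice between groups.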
